A study of Homo sapiens with 2 samples.

Results

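The hemidesmosome and laminin-332 genes are described here through the cytosines of their mRNAs in RNA BS-Seq data. The 8 genes are LAMA3, LAMB3, ITGA6, ITGB4, COL17A1, CD151, PLEC and DST, of 15614 genes with a listed nuclear exonic cytosine in either library. Their members are the cytosines with a coverage of at least 10 reads on same-strand exons of GENCODE basic transcripts. There were 9937 of them among 1584002 kept sites in MCF10A and 5426 among 1271253 in MDA-MB-468.

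Hemidesmosomes rivet the base of an epithelial cell to the basement membrane underneath. Outside the cell, laminin-332 is a trimer that holds the α3 chain of LAMA3 and the β3 chain of LAMB3, and its remaining chain is not analysed here. Its receptor in the membrane is integrin α6β4, made from ITGA6 and ITGB4, and the transmembrane collagen XVII of COL17A1 and the tetraspanin CD151 stand beside it. Inside the cell, the plakins plectin, from PLEC, and the epithelial BPAG1 product of DST tie the receptor to keratin filaments. In the mammary gland this junction belongs to the basal epithelial layer.

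MCF10A is an immortal, non-tumour epithelial line of the breast, and MDA-MB-468 is a breast cancer line. Each was measured as 1 library of poly(A)-selected RNA treated with sodium bisulfite at 60 degrees for 8 hours, and the lines also differ in culture medium in the study's methods. Bisulfite turns unmethylated cytosine into uracil and leaves 5-methylcytosine (m5C), so the methylation ratio of a site is its unconverted reads over its coverage. With 1 library per line, every comparison is of these libraries, and cell line, medium and library cannot be told apart. Depth was 76098976 counts over the listed cytosines in MCF10A against 90960018 in MDA-MB-468, and the median coverage of kept sites was 18 reads in each. On nuclear exons the order was the reverse, with 68863765 counts in MCF10A against 49424455 in MDA-MB-468. A coverage of 20 reads needed 5 unconverted reads for a call in MCF10A against 4 in MDA-MB-468, and a coverage of 100 needed 9 in each, so a low ratio was callable only where coverage was high. The epithelial markers were uneven. EPCAM, an epithelial adhesion molecule, had 1 of 450 exonic cytosines listed in MCF10A against 215 in MDA-MB-468, and CDH1, the E-cadherin gene, had 6 of 1183 and 320. All 5 epithelial markers and KRT17 of the 4 basal markers had a scaled coverage at least 2-fold higher in MDA-MB-468. The basal markers TP63, in both libraries, and KRT14, in MDA-MB-468, were listed at 0. In MCF10A, KRT14 had 31 of 487 cytosines listed. The basal marker KRT5 had 478 of 598 listed in MCF10A against 318 in MDA-MB-468, with a scaled coverage 1.93-fold higher in MCF10A. KRT8, KRT18, KRT19 and KRT17 had 269, 132, 231 and 264 cytosines listed in MCF10A. PTPRC, COL3A1 and ALB, markers of other cell types, were listed at 0 in both libraries, and COL1A1 had 49 and 568 of 1874 cytosines listed. EPCAM and CDH1 near 0 go against the epithelial label of the MCF10A library, while KRT5 and the other listed keratins do not. The identity of the library was not tested, so MCF10A stands below for the library with that label. The part of these differences in the results on the hemidesmosome genes was not tested either.

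Sequence around the m5C sites is shown for the extracellular chain LAMB3, the integrin chain ITGB4, the tetraspanin CD151 and the plakin DST, so that the base context of a call can be read directly. In each of these genes it is the called site with the highest coverage, and 2 more LAMB3 sites were added after their values were seen. Each window holds 10 bases on either side, is read from GRCh37 on the strand of the mRNA, and has the site as the capital C.
LAMB3, chromosome 1, position 209799290, minus strand, exon 14: cctggcttgaCcgggccccgc
LAMB3, chromosome 1, position 209796400, minus strand, exon 17: gccggtggggCcttcttgatg
LAMB3, chromosome 1, position 209796925, minus strand, exon 16: gaggaggaggCaccggcagcc
ITGB4, chromosome 17, position 73752931, plus strand, exon 37: tgagatggccCaaggaggagg
CD151, chromosome 11, position 836107, plus strand, exon 3: acatgtggcaCcgtttgcctc
DST, chromosome 6, position 56397220, minus strand, exon 64: gcagagcccgCagataaagtg
All 6 lie in coding sequence and were called in MCF10A. The DST site is not on the transcript of the hemidesmosomal isoform. Both added LAMB3 sites follow directly on GG, whereas the site of highest coverage follows on GA and the DST site on CG.

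The laminin chains were covered almost only in MCF10A, and LAMB3 had the largest bounded difference of the 8 genes. LAMB3 (chromosome 1, 209788215 to 209825770) had 1230 of 1253 exonic cytosines listed in MCF10A, with a mean coverage of 264 reads per exonic cytosine, and 11 listed in MDA-MB-468, with a mean of 0.0487. After scaling to 1000000 nuclear exonic counts, its coverage per exonic cytosine was 3.83 in MCF10A against 0.000985 in MDA-MB-468. The files list a cytosine only from a coverage of 5, so an unlisted cytosine may have had up to 4 reads. Even with 4 reads at every unlisted cytosine of MDA-MB-468, LAMB3 was at least 47.2-fold higher in MCF10A. Along its canonical transcript, cut into 5 equal lengths, mean coverage in MCF10A was lowest in the 5′ portion, at 167 reads, and highest in the 3′ portion, at 414 reads. The 11 cytosines listed in MDA-MB-468 all lay in the 3′ portion.

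LAMA3 (chromosome 18, 21269417 to 21535030) had 1298 of 2666 exonic cytosines listed in MCF10A against 22 in MDA-MB-468. Its scaled coverage per exonic cytosine was 0.218 in MCF10A against 0.000911 in MDA-MB-468, a difference of at least 2.69-fold with the unlisted cytosines at 4 reads. The gene makes a short α3A chain, which is the chain of laminin-332, and a long α3B chain from an upstream start. In MCF10A, the 52 cytosines found only on the short transcripts were all listed, with a mean coverage of 60.5 reads. The 1214 cytosines shared by short and long transcripts had a mean of 28.6 reads, and the 1400 found only on the long transcripts had a mean of 1.60 reads, which could be up to 4.70. Coverage of LAMA3 in MCF10A thus lay on the short form, and in MDA-MB-468 neither form passed a highest coverage of 8 reads.

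The integrin chains differed in how well they were covered. ITGB4 (chromosome 17, 73717408 to 73753899) had 1844 of 2082 exonic cytosines listed in MCF10A against 993 in MDA-MB-468, so it could be compared between the libraries over many positions. Its scaled coverage per exonic cytosine was 0.744 in MCF10A against 0.119 in MDA-MB-468, a ratio of 6.27 with bounds of 4.62 and 6.33 from the unlisted cytosines. The fall in coverage along ITGB4 had the same place in both libraries, with a mean of 27.6 and 1.55 reads in the fourth of the 5 equal lengths of the transcript against 62.6 and 10.9 in the last. ITGA6 (chromosome 2, 173292146 to 173371187) was thinly covered, with 290 of 1188 cytosines listed in MCF10A against 9 in MDA-MB-468. Its ratio of 45.8 had bounds from 0.433 to 103, so its direction is not fixed by the files. Of the 290 listed ITGA6 cytosines in MCF10A, 223 lay in the 5′ portion of the 5 equal lengths.

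COL17A1 (chromosome 10, 105791044 to 105845638) had 719 of 1665 exonic cytosines listed in MCF10A against 0 in MDA-MB-468. Its scaled coverage per exonic cytosine was 0.0905 in MCF10A, at least 1.12-fold higher with every cytosine of MDA-MB-468 at 4 reads. CD151 (chromosome 11, 832952 to 838835) had 442 and 401 of 490 cytosines listed. Its scaled coverage was 1.12 in MCF10A against 0.829 in MDA-MB-468, a ratio of 1.35 with bounds of 1.33 and 1.36. The collagen was therefore listed in MCF10A alone, while the tetraspanin was less than 2-fold apart.

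The plakins were unlike each other. PLEC (chromosome 8, 144989321 to 145050902) had 4830 and 4748 of 5312 exonic cytosines listed, and its scaled coverage of 1.35 in MCF10A against 1.13 in MDA-MB-468 gave a ratio of 1.19, with bounds of 1.19 and 1.20. DST (chromosome 6, 56322785 to 56819628) had 1314 and 335 of 6354 cytosines listed, with a scaled coverage of 0.0328 and 0.00884. Its ratio of 3.71 had bounds from 0.384 to 8.93, so its direction is not fixed either. The hemidesmosomal isoform BPAG1e was close to unlisted in both libraries. Of the 973 cytosines found only on its transcript, 29 were listed in MCF10A against 8 in MDA-MB-468. The highest coverage in MCF10A was 9 reads on these and 10 reads on the 641 cytosines shared with other transcripts. Kept DST sites thus lay on the other transcripts, apart from any shared site at 10 reads. The 4740 cytosines found only on the other DST transcripts had 1244 and 327 listed, with a mean coverage of 2.94 and 0.575 reads.

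**Figure D1:**
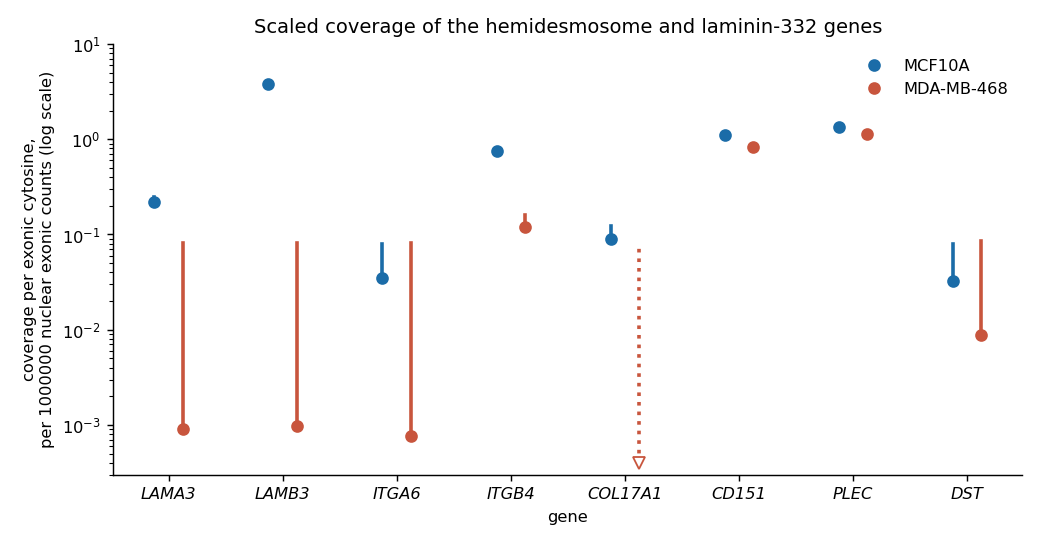
Scaled coverage per exonic cytosine of each gene (log axis, per 1000000 nuclear exonic counts) in MCF10A and MDA-MB-468, 1 library each. Points count unlisted cytosines as 0 reads, lines reach to the value with 4 reads at each, and the open triangle marks COL17A1, listed at 0 in MDA-MB-468. The lines of LAMA3, LAMB3, ITGB4 and COL17A1 do not overlap between the libraries, and those of ITGA6 and DST do.

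In all, 6 of the 8 genes had a scaled coverage at least 2-fold higher in MCF10A and 0 had it in MDA-MB-468. Across 8333 genes with at least 100 cytosines listed in either library, 32.3% were at least 2-fold higher in MCF10A against 27.3% in MDA-MB-468. Among those with any cytosine listed in both libraries, the median log2 ratio was 0.146. Over genes with at least 100 listed in each library, the median leaned to MDA-MB-468 instead, by a log2 of 0.151. LAMA3, LAMB3, ITGA6 and COL17A1 passed the minimum of 100 only through MCF10A, where more of their cytosines were listed, so the count of 6 is a description. With the smallest fold that the unlisted cytosines allow, 3 genes were past 2-fold, namely LAMA3, LAMB3 and ITGB4. DST was at 1.36 over the 316 cytosines listed in both libraries. In MCF10A the order of scaled coverage per exonic cytosine was LAMB3, PLEC, CD151, ITGB4, LAMA3, COL17A1, ITGA6 and DST, and the bounds of the last 2 overlap. In MDA-MB-468 it was PLEC, CD151 and ITGB4, and the bounds of the other 5 overlap.

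**Figure D2:**
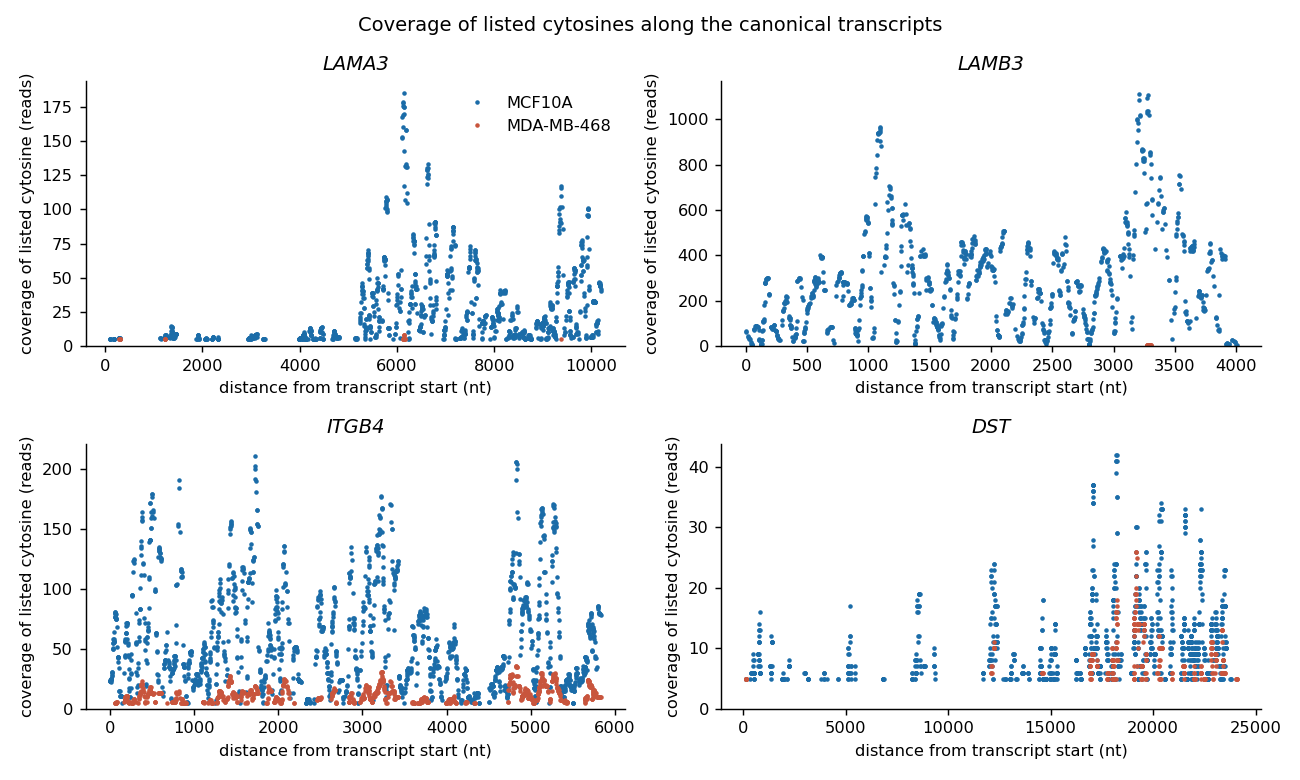
Coverage in reads of each listed cytosine against its distance from the transcript start (nt) along the canonical transcripts of LAMA3, LAMB3, ITGB4 and DST. Cytosines under 5 reads are not listed and not drawn. LAMA3 coverage in MCF10A lies in the 3′ part that the short transcripts share, LAMB3 reaches 1113 reads in MCF10A, and ITGB4 is covered along its length in both libraries.

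The pooled nonconversion of the 8 genes was below that of their libraries. Over all kept sites of the 8 genes, 1.62% of the counts were unconverted in MCF10A (95% Wilson interval 1.60% to 1.65%) and 1.56% in MDA-MB-468 (1.52% to 1.61%). Over every kept site of the library, mitochondrial ones included, it was 1.99% and 1.81%, and over the nuclear kept sites alone 1.94% and 1.77%. These intervals treat all counts as independent, but neighbouring cytosines share reads, so they may be too narrow even for counting error. In MCF10A the integrin chains were lowest, with 1.02% for ITGA6 (0.647% to 1.61%) and 1.21% for ITGB4 (1.14% to 1.28%). LAMB3 at 1.33% (1.29% to 1.37%) and LAMA3 at 1.37% (1.26% to 1.49%) were close to each other, with overlapping intervals. COL17A1 stood at 1.501% (1.26% to 1.79%), DST at 1.75% (1.505% to 2.03%) and CD151 at 1.76% (1.63% to 1.89%). PLEC was highest at 1.92% (1.88% to 1.96%), an interval under the 1.99% of all kept sites that holds the 1.94% of the nuclear ones.

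**Figure D3:**
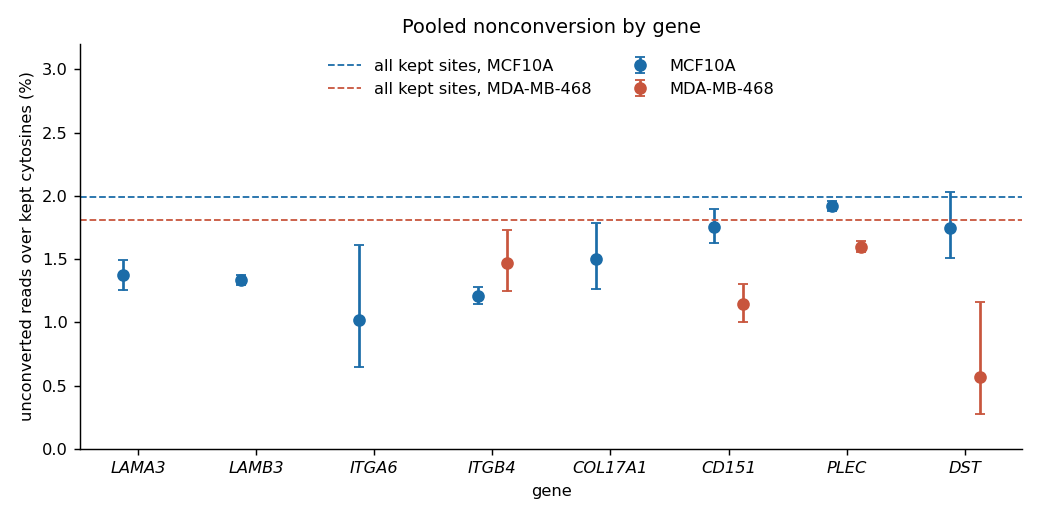
Unconverted reads as a percent of all counts over the kept cytosines of each gene, with 95% Wilson intervals, in MCF10A and MDA-MB-468. Dashed lines are all kept sites of each library, mitochondrial ones included, at 1.99% and 1.81%. Of the 4 genes drawn in both, PLEC, CD151 and DST lie higher in MCF10A with separate intervals, and ITGB4 lies lower with overlapping ones. Neighbouring cytosines share reads, so the intervals may be too narrow, and DST had 7 unconverted counts in MDA-MB-468. The other 4 have no kept site in MDA-MB-468.

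At single sites, 67 of the 9937 kept cytosines in MCF10A were called m5C, which is 0.674% (Wilson interval 0.531% to 0.855%), beside 0.960% of all kept sites of the library. In MDA-MB-468, 24 of 5426 were called, 0.442% (0.297% to 0.657%), beside 0.840% of all. A site was called where its unconverted share was above that of all kept sites together, by Fisher's exact test in that direction with a Benjamini-Hochberg adjusted p under 0.05. The calls were uneven among the genes. PLEC held 54 of the 67 in MCF10A and all 24 in MDA-MB-468, LAMB3 held 10 in MCF10A, and ITGB4, CD151 and DST held 1 each in MCF10A. Without PLEC the genes had 13 calls and 0 calls.

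LAMA3, ITGA6 and COL17A1 had no called site in MCF10A and no kept site in MDA-MB-468. Of LAMA3, 0 of 870 kept sites were called at a median coverage of 33 reads, which allows a share of up to 0.345%. For COL17A1 it was 0 of 409 at a median of 19 reads, which allows up to 0.733%. For ITGA6 it was 0 of 127 at a median of 12 reads, which allows up to 2.36%. At these median coverages only a high ratio could have been called. The highest coverage was 185 reads in LAMA3, 57 in COL17A1 and 23 in ITGA6. Lower ratios were thus detectable at the deeper sites of LAMA3 and hardly at all in the other genes. In MDA-MB-468, 0 of 582 ITGB4 sites, 0 of 357 CD151 sites and 0 of 94 DST sites were called, which allows up to 0.515%, 0.840% and 3.19%.

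The LAMB3 sites below other than 209799290 were chosen after their values were seen. In LAMB3, 10 of 1201 kept sites were called in MCF10A, 0.833% (0.453% to 1.53%), with a median coverage of 251 reads over the gene. Their ratios ran from 4.86% to 26.3% with a median of 7.74%, and 9 of the 10 were under 20%. The called site with the highest coverage, position 209799290, had 21 of 422 reads unconverted, 4.98% (3.28% to 7.49%), with an adjusted p of 0.0179 by the one-sided Fisher's exact test. The site at 209796400, in its GGGG context, had 36 of 412 reads unconverted, 8.74% (6.38% to 11.9%), with an adjusted p of 1.0e-10. At 209796925 the count was 19 of 212, or 8.96% (5.81% to 13.6%). Exon 14 held 5 of the 10 sites, among them the adjacent cytosines 209799338, with 17 of 231 reads, and 209799339, with 19 of 217. By region, 8 of the sites were coding, 1 lay in the 5′ UTR with 5 of 19 reads and 1 in the 3′ UTR with 10 of 123 reads. None of the 10 was listed in MDA-MB-468, so the LAMB3 sites could not be compared between the libraries.

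The isolated calls of the other genes rested on few reads. In ITGB4 the site at 73752931 had 6 of 35 reads unconverted in MCF10A, 17.1% (8.10% to 32.7%), with an adjusted p of 0.00810, and 0 of 14 in MDA-MB-468. That was 1 of 1742 kept ITGB4 sites, 0.0574% (0.0101% to 0.324%), a share below the 0.960% of the library. In CD151 the site at 836107 had 6 of 45 reads, 13.3% (6.26% to 26.2%), with an adjusted p of 0.0292, and 0 of 16 in MDA-MB-468. In DST the site at 56397220 had 4 of 14 reads, 28.6% (11.7% to 54.6%), with an adjusted p of 0.0160, and 0 of 8 in MDA-MB-468. The DST site lies only on transcripts other than that of BPAG1e. The MDA-MB-468 intervals reach 21.5%, 19.4% and 32.4%, so the MCF10A ratio lay within that interval at each site and no difference was detectable at this depth. All 3 adjusted p-values are from the one-sided Fisher's exact test.

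PLEC was the only gene with calls in both libraries. In MCF10A, 54 of 4587 kept sites were called, 1.18% (0.903% to 1.53%), and in MDA-MB-468 24 of 4393, 0.546% (0.367% to 0.812%). The median coverage of these sites was 103 reads in MCF10A against 61 in MDA-MB-468, so the shares are not at like detection limits. The part of depth in them was not tested. PLEC calls were mostly in coding sequence. Of its 54 sites, 51 were coding and 3 in the 3′ UTR in MCF10A, and all 24 were coding in MDA-MB-468. The ratios ran from 7.19% to 74.8% with a median of 10.7% in MCF10A, and from 8.18% to 62.5% with a median of 11.7% in MDA-MB-468. Most calls were low, with 47 of the 54 and 17 of the 24 under 20%. The remaining 7 in each library were the same 7 cytosines, described below.

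Exons 31 and 32 of the canonical transcript, which encode the coiled-coil rod and the plakin repeats, held most PLEC calls. This split was made after the calls were seen. Exon 31 (144996672 to 145000052) had 26 of 895 kept sites called in MCF10A, 2.91% (1.99% to 4.22%), and 8 of 898 in MDA-MB-468, 0.891% (0.452% to 1.75%). Exon 32 (144989321 to 144996563) had 21 of 2358, 0.891% (0.583% to 1.36%), and 16 of 2269, 0.705% (0.435% to 1.14%). The other exons had 7 of 1334, 0.525%, and 0 of 1226, which allows up to 0.245%. Median coverage in MCF10A and MDA-MB-468 was 94 and 82 reads in exon 31, and 120 and 60 in exon 32. In the other exons it was 79 and 41, so low ratios were harder to call in MDA-MB-468. Pooled nonconversion was highest in exon 31 in both libraries, at 3.15% (3.04% to 3.27%) and 2.42% (2.31% to 2.53%), against 1.73% and 1.35% in exon 32.

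**Figure D4:**
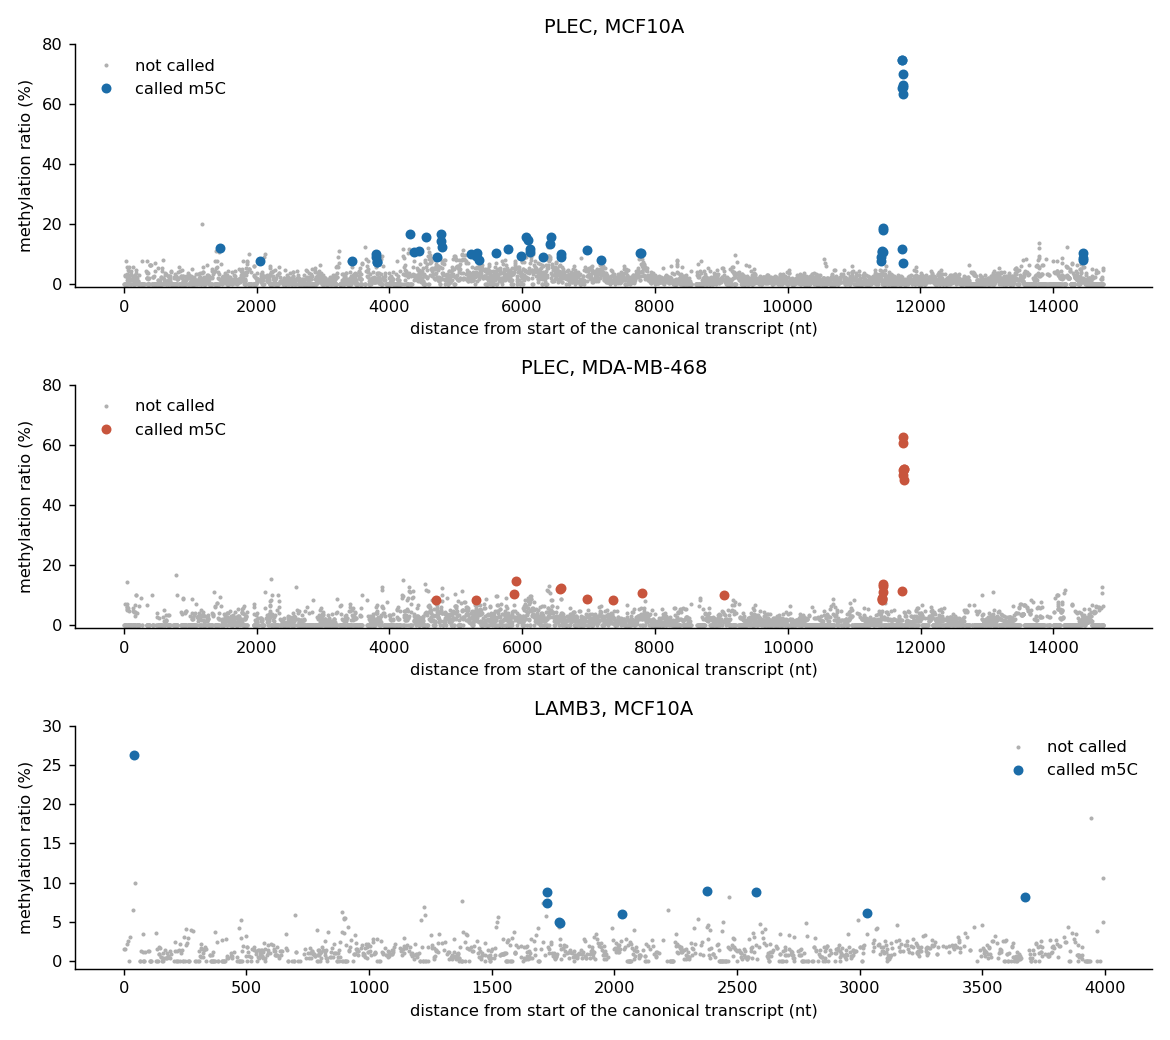
Methylation ratio in percent of each kept cytosine against its distance from the start of the canonical transcript (nt), for PLEC in both libraries and LAMB3 in MCF10A. Coloured points are called m5C sites and grey points are not called. The 7 PLEC sites above 48% are at the same place in both libraries, and the LAMB3 calls lie between 4.86% and 26.3%.

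A stretch of exon 32 of PLEC carried the highest ratios of any hemidesmosome gene. It was singled out after its values were seen. From 144992378 to 144992402 on the minus strand the coding sequence holds an inverted repeat, 2 arms of 12 nt that are reverse complements around a loop of 1 nt. Inside it, 7 cytosines had ratios of 63.3% to 74.8% in MCF10A, at coverages of 130 to 166 reads, and of 48.3% to 62.5% in MDA-MB-468, at 24 to 33 reads. The highest in both was 144992396, with 98 of 131 reads in MCF10A, 74.8% (66.7% to 81.5%), and 20 of 32 in MDA-MB-468, 62.5% (45.3% to 77.1%). The other 2 cytosines of the repeat were low. The one 2 nt from its centre had 12 of 167 reads unconverted in MCF10A, 7.19%, against 0 of 29 in MDA-MB-468. The outermost had 15 of 127, 11.8%, against 6 of 53, 11.3%. The 30 cytosines on either side of the repeat had ratios of 0% to 2.63% in MCF10A and 0% to 4.35% in MDA-MB-468.

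In the predicted structure of the PLEC transcript the 7 high cytosines were paired and the 2 low ones were not. Those 7 sites share reads, so they are not 7 separate measurements. A paired cytosine can escape bisulfite, and the study's methods left out paired sites for that reason. The part of pairing in these ratios was not tested.

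**Figure D5:**
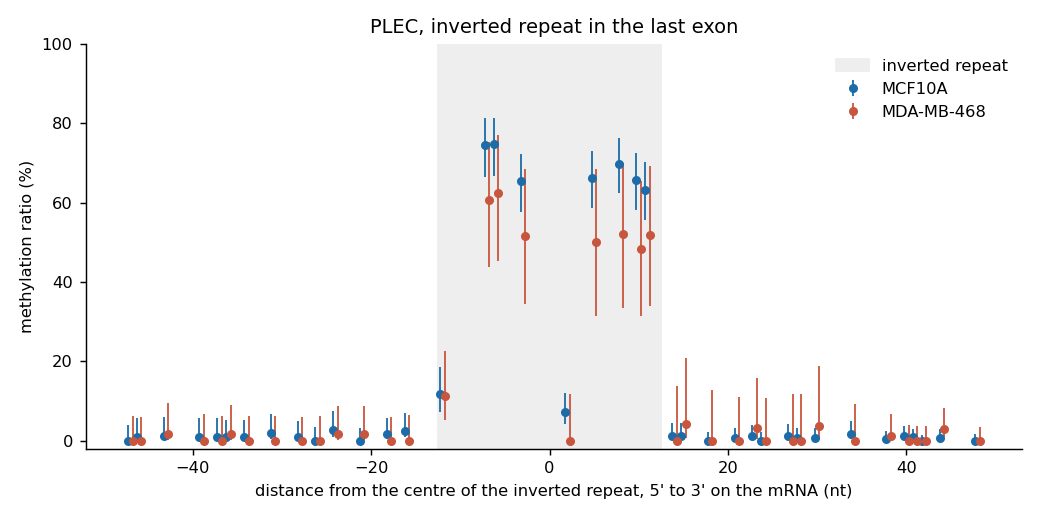
Methylation ratio in percent with 95% Wilson intervals against distance (nt) from the centre of the PLEC inverted repeat (grey band), in MCF10A and MDA-MB-468. The 7 high cytosines reach 63.3% to 74.8% and 48.3% to 62.5%, and the flanks stay at or under 2.63% and 4.35%.

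Outside the repeat, PLEC had another group of sites called in both libraries farther upstream in the mRNA, again in exon 32. At 144992708 the count was 18 of 165 reads in MCF10A, 10.9% (7.01% to 16.6%), and 9 of 110 in MDA-MB-468, 8.18% (4.36% to 14.8%). Position 144992711 had 15 of 165 and 9 of 103, and 144992712 had 13 of 165 and 9 of 102. Position 144992693 had 14 of 130, 10.8%, and 10 of 92, 10.9%. In exon 31, position 144997648 had 12 of 121, 9.92% (5.76% to 16.5%), and 12 of 97, 12.4% (7.22% to 20.4%). The intervals of the libraries overlapped at each of these sites. The PLEC site with the highest coverage among the MCF10A calls, 144989676 in the 3′ UTR, had 15 of 175 reads, 8.57%, in MCF10A against 3 of 115 in MDA-MB-468, where it was not called.

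Across the libraries, 5353 sites of the 8 genes were kept in both, of which PLEC had 4327, ITGB4 582, CD151 355 and DST 89. Both libraries called 15 of them, all in PLEC, of which 7 are the high cytosines of the repeat. That is 0.280% of the 5353, beside 0.621% of all 812729 sites kept in both, mitochondrial ones included. Not 1 of the 5353 differed between the libraries by a two-sided Fisher's exact test after Benjamini-Hochberg adjustment over all sites, beside 0.0893% of all. The smallest adjusted p was 0.429. At an unadjusted p under 0.05 there were 58, 1.08% of the sites, beside 1.14% of all.

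Pooled over the shared sites, the order of the libraries was not the same in every gene. PLEC was at 1.92% in MCF10A against 1.60% in MDA-MB-468, a difference of 0.326 percentage points (0.266 to 0.385). CD151 was at 1.75% and 1.14%, a difference of 0.603 points (0.398 to 0.800), and DST at 1.76% and 0.592%, a difference of 1.17 points (0.371 to 1.92). ITGB4 went the other way, at 1.18% and 1.47%, a difference of -0.286 points (-0.561 to -0.0454). Over all sites kept in both the libraries stood 0.273 points apart, so the PLEC difference is close to that of the libraries as a whole. The intervals may be too narrow even for counting error, because neighbouring cytosines share reads. No spread between libraries of a line could be had.

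The PLEC sites called in 1 library were read again in the other. At the 54 MCF10A sites, the pooled ratio was 20.6% in MCF10A and 8.02% (7.21% to 8.91%) in MDA-MB-468. The PLEC sites not called in MCF10A were at 1.51% (1.47% to 1.56%) in MDA-MB-468. Without the 15 sites called in both, the remaining 39 had 9.86% in MCF10A and 4.48% (3.80% to 5.27%) in MDA-MB-468. In reverse, the 24 MDA-MB-468 sites had 15.3% there and 30.2% (28.6% to 31.9%) in MCF10A. The 9 sites called in MDA-MB-468 alone had 9.90% there and 5.05% (3.77% to 6.73%) in MCF10A. The PLEC sites not called in MDA-MB-468 were at 1.75% in MCF10A. Pooled ratios weigh sites by their reads, and the high cytosines of the repeat had far fewer reads in MDA-MB-468. The ratio in the library of the call is also raised, because the sites were chosen by the same counts. Sites called in 1 library alone were thus, in the other library, above the sites not called in the first, without passing the test there.

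The called sites shared features that the choice of genes did not use. The cytosine followed directly on GG at 26 of the 67 sites in MCF10A, 38.8%, beside 11.7% of the kept sites of the 8 genes. Over all nuclear sites of that library the same shares were 18.3% of called and 9.44% of kept sites. In MDA-MB-468 it was 9 of 24, 37.5%, beside 14.1% of kept sites, and 17.3% beside 9.98% over all nuclear sites. LAMB3 had GG before 5 of its 10 sites and PLEC before 21 of its 54 in MCF10A. In the predicted structures of the canonical transcripts, 32 of the 67 called sites were paired, 47.8%, beside 13.8% of kept sites in MCF10A, and 14 of 24, 58.3%, beside 16.3% in MDA-MB-468. PLEC held 29 of those 32 and all 14, and 18.0% and 18.1% of its kept sites were paired. The 7 high cytosines of its repeat are among them in each library. Of the calls, 35 of the 67 lay within 10 nt of another call in the same gene, 52.2%, and 16 of the 24, 66.7%. That was less than the 86.2% and 86.8% of all nuclear calls with another call on the same strand within 10 nt. PLEC held 31 of those 35 and all 16. This context, pairing and spacing was looked at after the calls were seen, and neighbouring sites share reads.

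A list of 17 related genes held genes of adhesion to the basement membrane and the keratins KRT5 and KRT14, also used as basal markers. Of the 17, 15 had at least 100 cytosines listed in either library, KRT5 included. Of these, 11 had a scaled coverage at least 2-fold higher in MCF10A against 0 in MDA-MB-468, beside the 32.3% and 27.3% of all genes. ITGA2, COL4A1, ERBIN and FERMT1 passed the minimum only through MCF10A, and 7 of the 11 were still past 2-fold with the smallest fold that the unlisted cytosines allow. ITGA3, the α3 chain of another laminin-332 receptor, was 8.26-fold higher in MCF10A, with a scaled coverage per exonic cytosine of 2.52 and 0.305. COL7A1, the anchoring fibril collagen below the junction, was at 0.202 and 0.00910, at least 2.38-fold apart. LAMA5, the α5 laminin chain, had 0.529 and 0.974, a ratio of 0.543. In these genes 196 of 19385 kept sites were called in MCF10A, 1.01%, while MDA-MB-468 had 69 of 8632, 0.799%, close to the shares of all kept sites. ITGA3 held 51 and 16 of those calls and LAMA5 49 and 42.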

How the data were processed

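RNA BS-Seq of 1 MCF10A and 1 MDA-MB-468 library was analysed. In the study's methods, the authors used Trim Galore for trimming and MeRanTK for alignment to hg19 and for the cytosine counts, whereas the submitters' processing notes name Bismark. The authors deposited raw counts of unconverted and converted reads per cytosine, with no normalization, from a coverage of 5, introns included. The structure filter of the methods is not in the files. Reads carry no molecular identifiers, so intervals cover counting error at most. Those pooled over sites may be too narrow, because neighbouring cytosines share reads.

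Every nuclear site fell on a cytosine of its strand in GRCh37. Cytosines covered by at least 10 reads on same-strand exons of GENCODE release 44 basic transcripts, or on the mitochondrial chromosome, were kept and tested with Fisher's exact test (scipy 1.17.1), with Benjamini-Hochberg adjustment at 0.05 over the whole table. Coverage per exonic cytosine was scaled to nuclear exonic counts and has no test. Structures came from RNAfold 2.7.2 at 70 degrees on the canonical transcripts, with pairs up to 150 nt apart. Above 8000 nt they were folded in windows of 2000 nt at steps of 1000 nt, and a base paired in any window counted as paired. These settings follow the methods, which folded all transcripts. The tests were checked on simulated data.

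Named sites are, per gene and line, the called site of highest coverage and those called in both lines, at most 6 by summed coverage. Other sites were chosen after their values were seen. Markers were EPCAM, CDH1, KRT8, KRT18 and KRT19 (epithelial), KRT5, KRT14, KRT17 and TP63 (basal) and PTPRC, COL1A1, COL3A1 and ALB (other). The genes and lists were chosen with earlier results of these data known. Alternatives covered the coverage minimum, test, background, transcripts, pairing, threshold and scaling.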

Additional observations from a re-analysis of the deposited data

How the results depend on the processing

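The calls in MCF10A and MDA-MB-468 (67 and 24, with 15 in both) stayed within 1.5 times under a coverage minimum of 5 or 20, all annotated transcripts, a nuclear background, a binomial test, and without sites on other genes' exons. They depended on pairing and on the threshold. Without paired sites there were 35 and 10 calls, 3 in both, and pooled nonconversion was 1.51% and 1.47%. With a ratio of at least 0.2 there were 9, 7 and 7, and with an adjusted threshold of 0.01 there were 42 and 14. With tests only at sites called in a line, 2 sites differed, both in PLEC exon 31: 144998167, with 7 of 45 and 0 of 51 reads, and 144999787, with 12 of 108 and 0 of 89. Those sites were chosen by the same counts, so their p-values are too small. The rest of the alternatives for that test gave 0. Alternatives chosen after seeing the data follow. Without the PLEC inverted repeat, 7 sites were called in both and MCF10A nonconversion was 1.55%. Without PLEC there were 13, 0 and 0 calls, at 1.35% and 1.22%. Genes at least 2-fold apart numbered 6 under most alternatives, 4 over cytosines listed in both files, and 3 with the smallest fold the unlisted cytosines allow. Scaling by the median ratio raised log2 ratios by 0.151. No paired analysis was possible because each line has 1 library. Low coverage limits ITGA6, COL17A1 and DST.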

Other observations

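Reads of the hemidesmosome and laminin-332 genes were not confined to exons. LAMB3 had 1892 intronic cytosines listed in MCF10A, 657 of them at a coverage of at least 10, and 0 in MDA-MB-468. PLEC had 1175 in MCF10A and 1437 in MDA-MB-468, of which 302 and 390 reached that coverage. ITGB4 had 196 and 25, LAMA3 35 and 0, CD151 17 and 95, and DST 0 and 12, while ITGA6 and COL17A1 had 0 in both. At the well-covered intronic cytosines, 1.44% of the LAMB3 counts were unconverted in MCF10A, beside 1.33% over its exons, and 1.31% and 1.24% of the PLEC counts in MCF10A and MDA-MB-468, beside 1.92% and 1.60% over its exons.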
